A study of Mus musculus with 4 samples.

Results

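Mouse zinc finger protein genes whose symbol is Zfp followed by a number were examined for CTCF binding in embryonic stem cells (mESC). All peak summits that lay inside such a gene or within 2 kb of it were taken from 4 CTCF CUT&RUN peak lists. CUT&RUN releases the DNA next to a bound protein with a nuclease that is guided by an antibody. Genes came from the RefSeq table of the mm10 assembly (GRCm38.p6), protein-coding genes only, and Zfp42 was left out. Chromosomes 11, X and Y were not used, because chromosome 11 carries the edited HoxB alleles. This gave 342 Zfp genes and 18685 other protein-coding genes for comparison. Zfp genes held 800 of 93969 summits in the Ins list, 581 of 74555 in the Del(CBS8-10) list, 542 of 66365 in the Inv list and 841 of 99177 in the Inv:Del(CBS7-10) list. These were 0.987%, 0.901%, 0.964% and 0.979% of the summits on the chromosomes used.

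All 4 lines had one chromosome 11 with a HoxB deletion (Del) and a homologue with the Del(i9-13) deletion, into which an array of CTCF sites, Ins(CBS5-10), had been put. The Ins line held the array as inserted. The Del(CBS8-10) line lacked sites CBS8-10 of it, the Inv line held the array inverted as Inv(CBS5-10), and the Inv:Del(CBS7-10) line held it inverted without CBS7-10. There was 1 library per genotype, a line without the inserted array was not analysed here, and the labels do not say whether a line is 1 clone. With no replicates there is no test between lines and no p-value. The 95% Wilson intervals beside shares allow for counting error alone, and genes and summits are not replicates of a line. The −log10 q and the fold over local background are the authors' values for each peak within its own list, so a lower −log10 q in another list is not by itself lower binding. Read depth was not given in the sources used here, and the lists differ in length.

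CTCF, itself a zinc finger protein, marks insulators and stops cohesin as it extrudes loops. Most Zfp genes code for factors with a row of C2H2 zinc fingers, and many of these also have a KRAB domain, which recruits the co-repressor Trim28 and, through it, the histone methyltransferase Setdb1. KRAB zinc finger proteins silence retroelements in embryonic stem cells, and some of them protect imprinted loci. Many sit in clusters that arose by tandem duplication. In KRAB genes the fingers are usually coded by the last exon, so the last part of the gene is its most repeated piece.

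RefSeq promoter windows of 300 bases, from 250 before to 50 after an annotated start, were matched for 285 of the 342 Zfp genes. They show what the DNA looks like where some of the strongest promoter summits fell. In the first 3 windows the capitals mark a match to the 12-letter CTCF core motif with 1 mismatch allowed. The fourth, of Zfp764, has the strongest promoter summit of any Zfp gene in the Ins list and no such match. Each is written 5′ to 3′ on the strand of the gene.
Zfp868, chr8:69625499-69625798, minus strand: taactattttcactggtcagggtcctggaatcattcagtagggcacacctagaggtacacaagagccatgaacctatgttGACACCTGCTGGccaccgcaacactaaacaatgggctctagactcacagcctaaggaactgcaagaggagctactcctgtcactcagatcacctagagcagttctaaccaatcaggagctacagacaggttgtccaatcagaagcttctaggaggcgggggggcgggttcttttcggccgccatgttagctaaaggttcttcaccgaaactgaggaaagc
Zfp113, chr5:138155695-138155994, minus strand: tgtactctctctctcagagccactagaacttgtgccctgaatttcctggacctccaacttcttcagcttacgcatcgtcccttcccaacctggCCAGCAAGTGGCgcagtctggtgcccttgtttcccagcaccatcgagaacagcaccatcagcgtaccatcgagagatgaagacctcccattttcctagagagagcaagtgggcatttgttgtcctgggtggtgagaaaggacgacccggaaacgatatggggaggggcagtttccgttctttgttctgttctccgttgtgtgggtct
Zfp638, chr6:83914103-83914402, plus strand: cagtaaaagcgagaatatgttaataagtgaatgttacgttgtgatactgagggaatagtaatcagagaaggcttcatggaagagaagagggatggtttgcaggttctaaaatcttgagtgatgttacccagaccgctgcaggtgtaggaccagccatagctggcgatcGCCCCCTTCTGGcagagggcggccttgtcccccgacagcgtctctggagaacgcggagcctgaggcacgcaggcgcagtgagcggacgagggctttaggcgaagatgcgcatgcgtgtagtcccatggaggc
Zfp764, chr7:127406773-127407072, minus strand: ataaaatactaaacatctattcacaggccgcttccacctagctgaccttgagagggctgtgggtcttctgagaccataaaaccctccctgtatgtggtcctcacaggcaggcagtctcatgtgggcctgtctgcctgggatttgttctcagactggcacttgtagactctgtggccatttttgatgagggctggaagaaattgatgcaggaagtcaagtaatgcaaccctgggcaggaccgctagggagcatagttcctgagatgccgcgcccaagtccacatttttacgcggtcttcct

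At the Zfp868 start the Ins summit was base 126 of the window, 39 bp from the centre of the motif match at bases 81 to 92. Its −log10 q was 111 in Ins, 68.0 in Del(CBS8-10), 44.5 in Inv and 194 in Inv:Del(CBS7-10). The Zfp113 match, at bases 94 to 105, lay 19 bp from the summit at base 119. There the values were 97.3, 29.3, 16.6 and 89.5 in the same order. For Zfp638 the match at bases 169 to 180 also lay 19 bp from the summit, at base 156, with 104, 41.4, 37.0 and 208, but this window is an inner start 47285 bp into the gene. Zfp764 had 130, 54.4, 60.2 and 145 at base 251 of its window. A match was found on either strand in 14 of 285 Zfp windows (4.91%, interval 2.95 to 8.08) and in 709 of 14877 windows of other genes (4.77%). Among windows that held an Ins summit, 9 of 140 Zfp windows had one (6.43%, interval 3.42 to 11.8), against 423 of 3745 other windows (11.3%). With an Ins summit of −log10 q 20 or more it was 6 of 36 (16.7%, interval 7.87 to 31.9) against 22.5%. No Zfp window held an exact match (0 of 285, upper bound 1.33%). Of the other windows 80 of 14877 did (0.538%), a share within the Zfp interval. The absence of these letters says nothing on whether CTCF was bound there.

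Zfp genes had a CTCF summit inside or within 2 kb more often than other genes in the full peak lists. In Ins 295 of 342 had one (86.3%, interval 82.2 to 89.5), in Del(CBS8-10) 247 (72.2%), in Inv 255 (74.6%) and in Inv:Del(CBS7-10) 292 (85.4%). The share of all other genes was 72.2%, 66.4%, 64.5% and 72.2%. Zfp genes were of ordinary length, with a median of 18288 bp against 17843 bp, but fewer of them were very short or very long. Other genes weighted to the same length deciles reached 77.6%, 71.0%, 68.9% and 77.5%, so the difference in Del(CBS8-10) lay within the Zfp interval of 67.2 to 76.7. The gap was widest in short genes: of 51 Zfp genes under 10 kb, 39 had an Ins summit (76.5%, interval 63.2 to 86.0), against 45.5% of other genes of that size. Among genes over 30 kb the shares were 94.7% and 92.8%.

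The summits at Zfp genes were weaker than those of the lists they came from. Their median −log10 q was 12.8 in Ins, 8.74 in Del(CBS8-10), 8.95 in Inv and 15.6 in Inv:Del(CBS7-10). All summits on the same chromosomes had medians of 18, 12.4, 12.7 and 24.1. Median fold over background was 7.21, 6.51, 7.14 and 7.43, against 8.61, 7.87, 8.59 and 9.24. Among the 20000 strongest peaks per list the order turned: 22.2%, 24.0%, 21.1% and 21.6% of Zfp genes then had a summit, which was 15.2, 12.4, 15.8 and 13.7 percentage points below other genes of like length. With peaks of −log10 q 10 or more the shares were 64.3%, 42.4%, 40.6% and 69.9%, below other genes in the first 3 libraries and above them in Inv:Del(CBS7-10). The higher share of Zfp genes with a summit is therefore a statement about the full lists, weak peaks included.

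Zones were set on the 285 Zfp genes and 14877 other genes with a known strand. The promoter ran from 2 kb before to 500 bp after the outer start, the last part was the final 2 kb of the gene, and the body was what lay between. A promoter summit was found at 159 Zfp genes in Ins (55.8%, interval 50.0 to 61.4), 107 in Del(CBS8-10) (37.5%, 32.1 to 43.3), 125 in Inv (43.9%, 38.2 to 49.7) and 153 in Inv:Del(CBS7-10) (53.7%, 47.9 to 59.4). Among other genes it was 37.4%, 26.1%, 29.1% and 35.4%, and after weighting for length 41.9%, 29.2%, 33.0% and 39.5%. Over all lengths, every library thus had its Zfp interval above the share of other genes. The promoter panel of the plot of shares by zone shows this gap, which for peaks of −log10 q 10 or more shrank to 4.57 and 4.63 percentage points in Ins and Inv:Del(CBS7-10) and was −2.47 and −1.65 in Del(CBS8-10) and Inv. With the 20000 strongest peaks the differences were −3.41, −2.62, −4.77 and −1.86 percentage points. In the full lists the gap differed by length. Under 10 kb, 52.5%, 37.5%, 45.0% and 45.0% of 40 Zfp genes had a promoter summit, against 29.1%, 20.9%, 22.9% and 28.1%. From 10 to 30 kb it was 59.8%, 41.8%, 47.1% and 59.3% of 189 against 44.1%, 31.4%, 35.0% and 42.1%. Over 30 kb it was 44.6%, 23.2%, 32.1% and 41.1% of 56 against 40.3%, 27.1%, 30.5% and 37.3%. There other genes lay within the Zfp interval in every library.

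**Figure D1:**
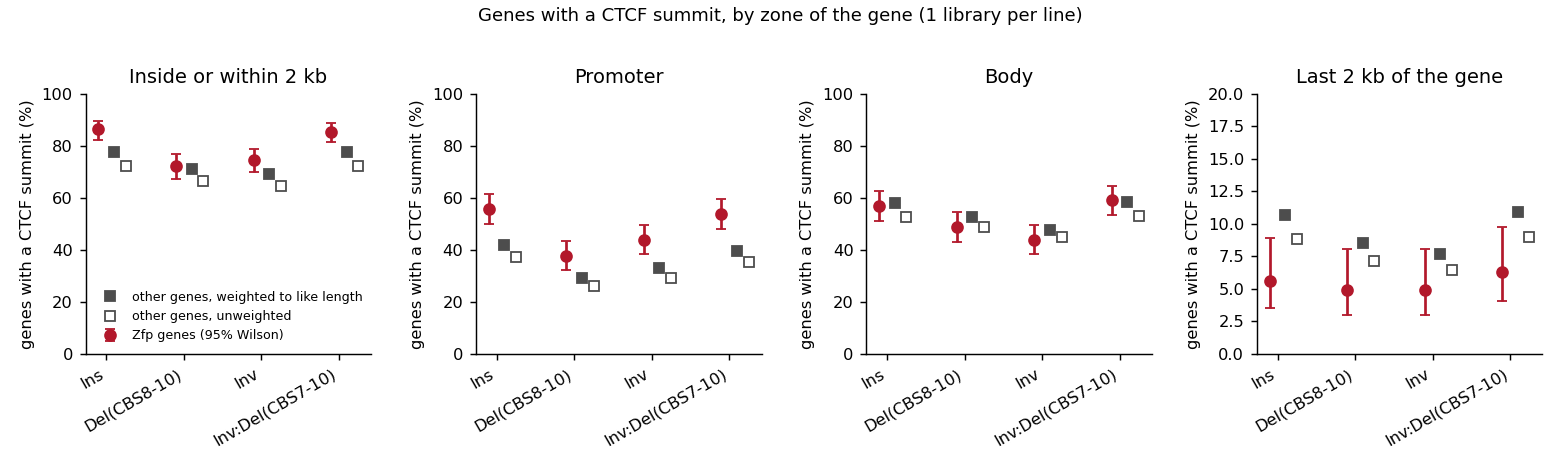
Share of genes (%) with a CTCF summit by zone and library, for Zfp genes (red, bars are 95% Wilson intervals) and other protein-coding genes weighted to like length (filled squares) or unweighted (open squares). The Zfp share is above both in the promoter panel of every library and below the weighted value in the last 2 kb; the last axis ends at 20%.

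The extra promoter summits lay at the start itself. In the 250 bp before the start, genes over 4 kb had 32.0, 20.9, 23.7 and 34.5 summits per 100 Zfp genes in the 4 libraries, again in that order. Other genes had 22.2, 13.8, 16.2 and 19.9. The neighbouring 250 bp upstream held 5.04 per 100 Zfp genes in Ins and 4.95 per 100 other genes. Of the Zfp promoter summits, 65.0%, 64.3%, 69.7% and 67.5% were within 250 bp of the start, against 56.6%, 53.1%, 59.7% and 54.9%. The median place of an Ins promoter summit was −63 bp at Zfp genes and −105 bp at other genes.

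**Figure D2:**
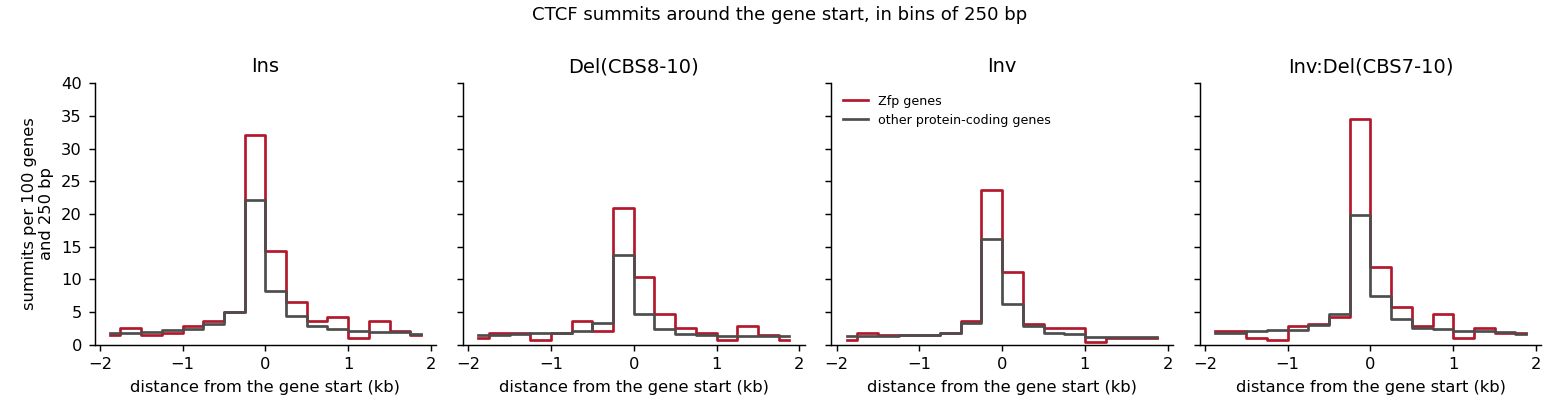
CTCF summits per 100 genes in bins of 250 bp (y axis) against distance from the gene start in kb (x axis, negative is upstream), for Zfp genes (red) and other protein-coding genes (grey) in each library. Both peak in the bin just upstream of the start, at 32.0 against 22.2 in Ins, and beyond 500 bp both are low, at 4.68 or fewer, with single bins rising above or below each other.

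Split by strength, the promoter excess was made of weak and, mainly in Ins and Inv:Del(CBS7-10), middling peaks. Other genes were not weighted for length in this split. At a −log10 q under 10, Zfp promoters had 31.6, 33.0, 34.4 and 26.0 summits per 100 genes in the 4 libraries, where other promoters had 19.2, 16.1, 17.0 and 14.9. From 10 to 50 the values were 34.0, 15.1, 16.1 and 32.3 against 20.0, 13.0, 14.6 and 18.2, ratios of 1.70, 1.16, 1.11 and 1.77. For all peaks of 10 or more, the promoter share minus that of other genes of like length was −2.47 points in Del(CBS8-10). In Inv it was −1.65 points. At 50 and over the summits per 100 genes were 5.61, 1.05, 0.351 and 9.82 against 8.65, 2.14, 2.25 and 11.7. These rest on 16, 3, 1 and 28 Zfp summits. Zfp promoters were therefore above other promoters in the lowest class and below them in the highest class in all 4 lists. The same site usually had a lower −log10 q in the shorter lists, so a range does not hold the same sites in each.

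**Figure D3:**
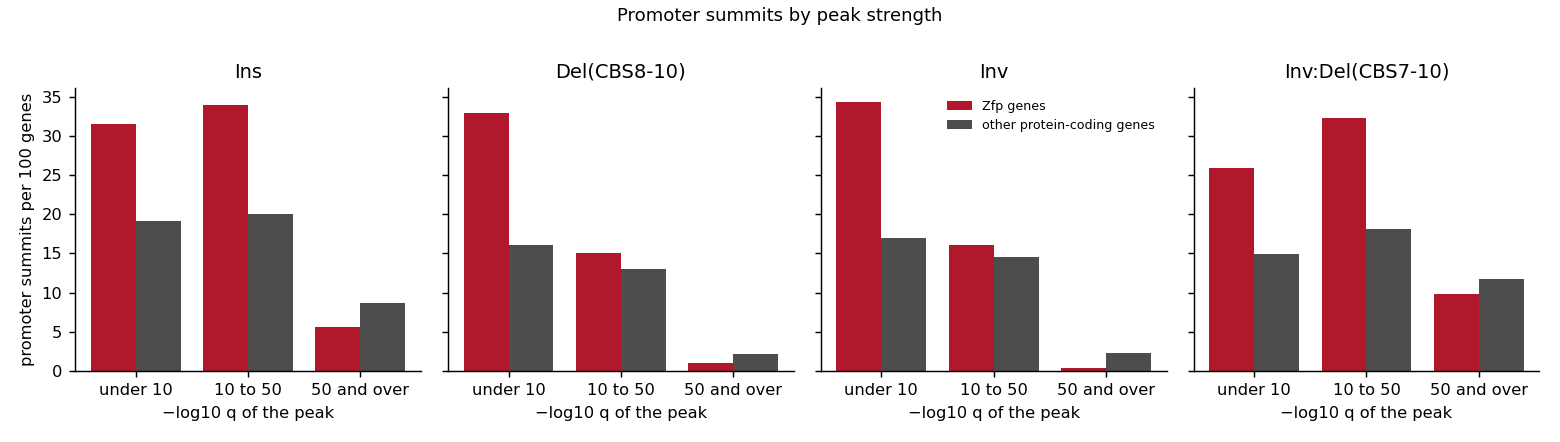
Promoter summits per 100 genes (y axis, from 0) by −log10 q of the peak (x axis), one panel per library. Red is for 285 Zfp genes and grey for 14877 other genes, not weighted for length. Red bars exceed grey below 50 and fall under them at 50 and over, where they rest on 16, 3, 1 and 28 Zfp summits.

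The gap at promoters lay in the CpG-poor and middle classes of promoter. The CpG observed/expected ratio, a measure of how CpG-rich a promoter is, was taken from the 300-base window nearest the outer start, at any distance. It was under 0.4 for 67 Zfp genes, from 0.4 to 0.6 for 67 and at 0.6 or more for 151. Among CpG-poor promoters, under 0.4, 52.2% of Zfp genes had an Ins summit (35 of 67, interval 40.5 to 63.7), against 13.7% of 5754 other genes. The same class gave 29.9% against 10.6% in Del(CBS8-10), 40.3% against 10.2% in Inv and 53.7% against 13.9% in Inv:Del(CBS7-10). In the middle class the shares were 64.2%, 50.7%, 56.7% and 61.2%, against 42.7%, 29.3%, 32.4% and 39.6%. At 0.6 and over, Zfp genes (53.6%, 35.1%, 39.7% and 50.3%) and other genes (54.7%, 37.5%, 43.0% and 51.2%) differed by less than the Zfp intervals. Across the classes other genes rose from 13.7% to 54.7% in Ins, whereas Zfp genes stayed between 52.2% and 64.2%. These classes were chosen after the data had been seen, and the other genes in them were not weighted for length. Weighted, other genes of the CpG-poor class had 17.5%, 13.8%, 13.3% and 17.8%, still below the Zfp intervals. Leaving out chemosensory receptor genes, which are many and CpG-poor, moved the unweighted CpG-poor value of other genes in Ins from 13.7% to 16.7%. With peaks of −log10 q 10 or more the CpG-poor class gave 26.9%, 14.9%, 13.4% and 25.4% against 9.26%, 6.12%, 5.98% and 9.84%. The 4 Zfp intervals still lay above these values, with lower bounds of 8.31 in Del(CBS8-10) and 7.23 in Inv. Values weighted for length were not computed at this cut. The middle class then gave 38.8%, 10.4%, 17.9% and 43.3% against 28.4%, 16.3%, 17.0% and 28.3%, so it turned in Del(CBS8-10), and other genes lay within the Zfp interval in all but Inv:Del(CBS7-10). Among the 20000 strongest peaks the CpG-poor class had 4 of 67 Zfp genes in every list (5.97%, interval 2.35 to 14.4) against 3.25% to 3.79% of other genes. The middle class there had 7.46%, 7.46%, 2.99% and 8.96% against 8.84%, 8.79%, 9.01% and 7.41%, so it lay below other genes except in Inv:Del(CBS7-10). In the full lists, windows within 500 bp of the outer start gave 59.6%, 35.1%, 45.6% and 61.4% against 12.1%, 9.50%, 8.83% and 12.3% for CpG-poor promoters. The middle class also stayed above other genes. At 0.6 and over it was 62.8%, 42.1%, 47.9% and 57.9% against 58.9%, 40.3%, 46.6% and 54.9%. No intervals were computed for these windows.

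**Figure D4:**
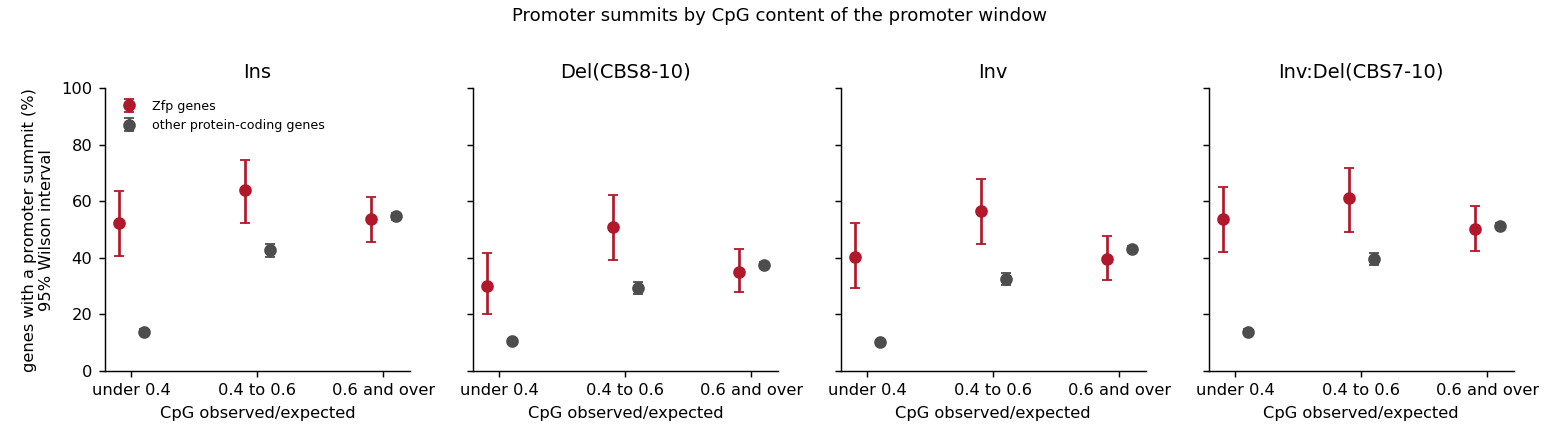
Share of genes (%) with a promoter summit (y axis) by CpG observed/expected ratio of the promoter window (x axis), with 95% Wilson intervals. Zfp genes are in red and other genes, not weighted for length, in grey. In Ins the grey points climb from 13.7% to 54.7% while the red ones lie between 52.2% and 64.2%.

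Start annotation and shared promoters were also examined. Of the 285 Zfp genes, 18 had the start of another protein-coding gene on the opposite strand within 1 kb (6.32%), a share of 10.5% among other genes. Without such a neighbour, 148 of 267 Zfp promoters (55.4%) and 34.2% of other promoters had an Ins summit. In Del(CBS8-10), Inv and Inv:Del(CBS7-10) it was 37.8%, 42.7% and 52.4% against 24.1%, 26.6% and 32.6%. Of the 18 with such a neighbour, 61.1% had an Ins summit, against 64.0% of other genes. In the other lists it was 33.3%, 61.1% and 72.2% against 42.7%, 50.3% and 59.0%. These values of other genes all lay within the wide Zfp intervals. Where the RefSeq window lay within 500 bp of the outer start, the Zfp promoter shares were 64.8%, 44.5%, 51.7% and 61.9%, against 44.4%, 30.9%, 35.1% and 41.7% of other genes of like length. Between 5.71% and 6.83% of the summits at Zfp genes also lay inside or within 2 kb of another protein-coding gene.

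In the gene body, over all lengths, Zfp genes did not stand above other genes of like length. Body summits were found in 162 Zfp genes in Ins (56.8%, interval 51.0 to 62.5), 139 in Del(CBS8-10) (48.8%), 125 in Inv (43.9%) and 168 in Inv:Del(CBS7-10) (58.9%). Other genes had 52.7%, 48.9%, 45% and 52.9%, and 58.0%, 52.4%, 47.5% and 58.3% when weighted. All 4 weighted values lie within the Zfp intervals. Among genes under 10 kb, 30.0%, 17.5%, 22.5% and 27.5% of 40 Zfp genes had a body summit against 11.6%, 9.48%, 8.24% and 11.4%, with the Zfp interval above other genes except in Del(CBS8-10). From 10 to 30 kb the shares were 52.9%, 45.5%, 40.7% and 57.1% against 59.5%, 52.7%, 47.4% and 59.8%. Per Mb of body, Zfp genes held 51.6 summits in Ins and all other genes, not weighted for length, 40.8, a ratio of 1.27. With the 20000 strongest peaks that ratio was 0.795.

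The last 2 kb of Zfp genes carried few summits. They were found at 16 genes in Ins (5.61%, interval 3.48 to 8.92), 14 in Del(CBS8-10) (4.91%, 2.95 to 8.08), 14 in Inv (4.91%) and 18 in Inv:Del(CBS7-10) (6.32%, 4.03 to 9.76). The share of other genes was 8.83%, 7.12%, 6.47% and 9.01%, and after weighting 10.6%, 8.5%, 7.7% and 10.9%. The weighted values of Ins, Del(CBS8-10) and Inv:Del(CBS7-10) lie above the Zfp intervals, and that of Inv lies inside its interval of 2.95 to 8.08. No Zfp gene under 10 kb had such a summit in any library (0 of 40, upper bound 8.76%), against 7.82% of other genes of that size in Ins. From 10 to 30 kb, 5.82%, 5.29%, 4.23% and 6.35% of 189 Zfp genes had one, against 11.8%, 9.43%, 8.43% and 11.9%. Over 30 kb the order was the other way, with 8.93%, 7.14%, 10.7% and 10.7% of 56 Zfp genes against 7.44%, 6.14%, 5.45% and 7.83%, all 4 within the Zfp intervals. How the authors treated reads with several possible places is unknown here, and its part in the counts over these repeated exons was not tested. Over all lengths, in 28 values computed under the main and alternative settings, Zfp genes lay below other genes, with differences from −5.33 to −1.68 percentage points. The 2 kb beyond the end held a summit at 35, 35, 29 and 38 Zfp genes, or 12.3%, 12.3%, 10.2% and 13.3%, against 14.1%, 11.5%, 10.4% and 14.4% of other genes. The weighted values, 16.7%, 13.3%, 12.1% and 16.2%, were all above the Zfp shares, and in Ins the value lay just above the Zfp interval of 8.96 to 16.6. Summits in this stretch beyond the end had a higher median −log10 q at Zfp genes than at other genes. It was 32.8, 16.6, 18.3 and 40.8 against 24.3, 15.4, 14.6 and 31.0.

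The strongest promoter summits belonged to Zfp764, Zfp345, Zfp219, Zfp868 and Zfp113. Zfp345 had a summit at −501 bp from its start, with −log10 q of 121, 56.2, 35.8 and 134 in that order, and 2 promoter summits in every list. Zfp219 had 113, 38.2, 15.4 and 131 at −1975 bp, just inside the upstream edge of the zone. All 5 were present in all 4 lists, with the lowest value in Del(CBS8-10) for Zfp764 and in Inv for the others. Fold over background at Zfp764 was 20.4, 15.2, 22.5 and 20.5, so that Inv, among the lowest in −log10 q, was highest in fold.

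Within gene bodies the strongest Ins summit was that of Zfp993, with −log10 q of 306, 161, 95.6 and 480 and fold of 19.9, 17.3, 19.6 and 21.7. Zfp993 is annotated over 478.623 kb of chromosome 4 and held 31, 21, 28 and 37 summits, the most of any Zfp gene in Ins. Zfp638, which codes for a nuclear RNA- and DNA-binding protein, had 167, 60.9, 77.1 and 418. Zfp536, a regulator of neuronal differentiation, had 154, 76.9, 68.9 and 284, and 22, 14, 15 and 20 summits over its 456.017 kb. Zfp64 had 145, 69.9, 72.8 and 334. These 4 sites were found in every list, highest in Inv:Del(CBS7-10).

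Zfp949 differed from them. Its Ins summit, 5.249 kb into the gene on chromosome 9, had a −log10 q of 145 and a fold of 29.9. Neither Del(CBS8-10) nor Inv:Del(CBS7-10) had a summit within 100 bp of it, and Inv had 12.1 with a fold of 9.09. Of the 52 Ins summits at Zfp genes with a −log10 q of 100 or more it was the only one not found in every other list. The gene itself kept summits elsewhere, with highest values of 47.9 in Del(CBS8-10) and 108 in Inv:Del(CBS7-10).

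In the last 2 kb the strongest were Zfp975 (127, 74.9, 83.0 and 199), Zfp444 (111, 57.6, 35.0 and 230) and Zfp423 (95.1, 44.8, 23.6 and 200). Each was present in every list. Zfp523, with 74.3 in Ins, 21.1 in Inv and 205 in Inv:Del(CBS7-10), had no Del(CBS8-10) summit within 100 bp but a gene maximum of 30.1 there. The second such site of Zfp64 had 71.3, 35.6, 18.3 and 108. The plot of the 15 strongest sites shows the usual order, with Inv:Del(CBS7-10) or Ins highest and Del(CBS8-10) or Inv lowest.

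**Figure D5:**
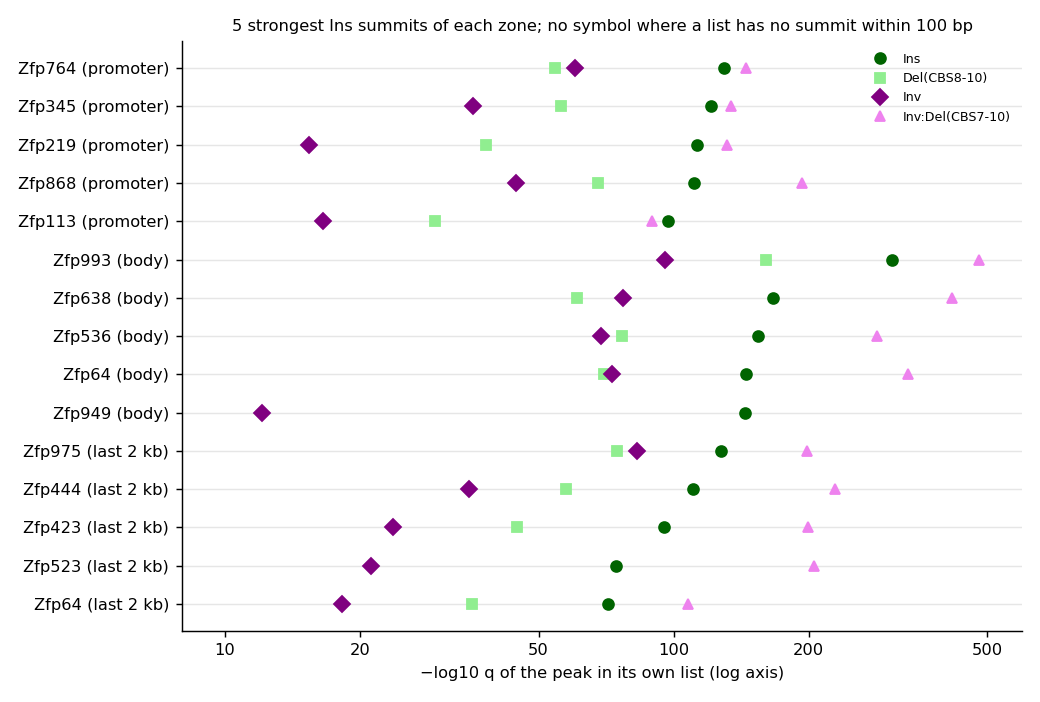
−log10 q in its own list (x axis, log scale) of the 5 strongest Ins summits of each zone at Zfp genes (y axis), with one symbol per library and none where a list has no summit within 100 bp. Zfp949 has symbols only at 145 (Ins) and 12.1 (Inv), and the longest list, Inv:Del(CBS7-10), is highest at 13 of the 15 sites.

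The genes with known roles in silencing all had a summit in Ins, as did 86.3% of all Zfp genes, with maxima from 5.21 to 63.9. Zfp57, which with Zfp445 keeps imprints by binding methylated imprinting control regions, had a single body summit of −log10 q 10.4 in Ins and none in the other lists. Zfp445 had 21.6 in Ins at a site absent from the other lists, none at all in Del(CBS8-10), and gene maxima of 6.39 in Inv and 4.75 in Inv:Del(CBS7-10). Zfp809, which recognises the primer binding site of murine leukaemia retroviruses, had 7, 5, 2 and 6 summits with maxima of 51.3, 36.3, 11 and 58.6. Zfp932, a repressor of endogenous retroviruses, had 1 promoter summit in every list, of 17.0, 9.42, 11.9 and 10.8. Zfp708, which binds another group of retroviral elements, had 5.21 in Ins and 2.58 in Del(CBS8-10) and no summit in the other lists. Zfp568, a repressor of a placental Igf2 transcript, reached 63.9, 24.9, 39.8 and 74.5, and Zfp819 20.6, 11.4, 8.17 and 41.3.

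Among regulators of stem cells and promoters, Zfp143, a factor of CpG-rich promoters, had a body summit of 127, 71.3, 13.0 and 295. Zfp217, a co-repressor subunit, had 141, 57.5, 71.0 and 311. Zfp281, a pluripotency factor, had promoter summits of 10.5, 6.11 and 11.9 in Ins, Del(CBS8-10) and Inv:Del(CBS7-10) and none in Inv. Zfp462 had maxima of 7.59, 5.68, 10.1 and 25.9. Zfp296, which is expressed in pluripotent cells, had no summit in any list. In Ins the body summits of Zfp143 and Zfp217 thus ranked far above the promoter summit of Zfp281.

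The developmental genes Zfp423 and Zfp521, regulators of adipose and neural precursors, had maxima of 132, 81.9, 65.4 and 208 and of 58.5, 58.7, 16.0 and 140. Zfp423 held 19, 10, 9 and 16 summits. Zfp703 had a summit 403 bp beyond its right-hand end with 135, 55.1, 18.3 and 179, while its relative Zfp503 had 3.96 in Ins only. Zfp36, whose product destabilises messenger RNAs, had 1 promoter summit in each list, of 9.27, 7.26, 10.9 and 29.2. Zfp110 had a summit only in Inv:Del(CBS7-10), of 7.65, and its relative Zfp369 had 70.4, 28.1, 16.0 and 106.

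Some Zfp genes had a summit in Ins and lacked any in another list. The strongest was at the start of Zfp956, with 38.7 in Ins, 11.2 in Inv, 57.2 in Inv:Del(CBS7-10) and none in Del(CBS8-10). Zfp507 (31.5) was likewise without a summit in Del(CBS8-10), Zfp72 (34.4) and Zfp180 (30.4) in Inv, and Zfp954 (29.9) in Inv:Del(CBS7-10). Zfp599 (27.9) had none in Del(CBS8-10) or Inv and 33.7 in Inv:Del(CBS7-10). All 6 had an Ins −log10 q under 40.

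A summit in every list was found at 208 Zfp genes (60.8%, interval 55.6 to 65.8) and at 58.9% of other genes, or 62.4% weighted. For promoters it was 83 genes (29.1%, interval 24.2 to 34.6) against 20.1% and 22.8% weighted. For bodies it was 103 (36.1%, interval 30.8 to 41.9) against 41.4% and 42.3% weighted. The last 2 kb had 6 genes (2.11%, interval 0.968 to 4.52) against 5.18% and 6.28% weighted, and the 2 kb beyond the end 24 (8.42%) against 8.36%. There were 25 Zfp genes with no summit in any list (7.31%), against 22.4% of other genes without weighting for length. Under 10 kb long were 6635 of 18685 other genes and 51 of 342 Zfp genes. The median length of the 25 Zfp genes was 11 kb, where that of the 208 was 20.6 kb. By the count of genes with a summit in every list, promoters were again above and the last 2 kb below other genes. For bodies the weighted value lay just above the Zfp interval and the unweighted one inside it.

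Of the 800 Ins summits at Zfp genes, 56.6% were found within 100 bp in Del(CBS8-10), 52.1% in Inv and 74.1% in Inv:Del(CBS7-10). Summits at other genes were found in 63.5%, 55.1% and 75.3%. In every other list 310 of the 800 were found (38.8%, interval 35.4 to 42.2), against 46.4%. Strength went with this: 4.96% of Zfp summits with a −log10 q under 5 were in every other list, 19.1% of those from 5 to 20, 74.6% from 20 to 100 and 98.1% at 100 or more. At other genes the shares were 2.87%, 16.3%, 82.0% and 99.1%. From 20 to 100 the Zfp interval of 68.7 to 79.7 lay below the value of other genes, and in the other classes it included that value.

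Clusters, set as at least 5 Zfp genes with less than 500 kb between neighbours, numbered 16 and held 168 of the 342 genes. Genes in clusters had a summit in 86.9%, 73.2%, 74.4% and 85.7% of cases, and genes outside them in 85.6%, 71.3%, 74.7% and 85.1%. For promoters it was 57.0%, 37.6%, 45.6% and 53.0% against 54.4%, 37.5%, 41.9% and 54.4%. Genes inside and outside clusters thus differed by less than the counting intervals.

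The largest cluster, chr17:21008941-23599755 with 23 genes, held 45, 34, 35 and 47 summits. Its strongest summit, with −log10 q of 138, 51.3, 31.0 and 256, lay 1407 bp beyond the end of Zfp53 and 883 bp into Zfp52, and it counts for both. Zfp944 followed with 117, 48.9, 38.4 and 229. The second, chr13:66670274-67827000 with 20 genes, had weaker summits. Zfp459 led it with 44.8, 22.0, 4.50 and 11.8 at its strongest Ins site, before Zfp595 (40.5, 8.88, 14.6 and 43.4) and Zfp457 (35.1, 27.5, 9.57 and 31.5). Elsewhere in the gene, Zfp459 reached 8.09 in Inv and 62.3 in Inv:Del(CBS7-10). In that cluster 17 of 20 genes had a summit in Ins, 14 in Del(CBS8-10), 10 in Inv and 13 in Inv:Del(CBS7-10). These shares of 85%, 70%, 50% and 65% stand next to 86.3%, 72.2%, 74.6% and 85.4% of all Zfp genes. The third, chr4:145510759-147849126 with 16 genes, held 66, 52, 65 and 94 summits. Of its genes 13, 14, 16 and 16 had one, or 81.3%, 87.5%, 100% and 100%, next to 86.3%, 72.2%, 74.6% and 85.4% of all Zfp genes. Zfp993 overlaps Zfp981, and Zfp978 overlaps Zfp991 and Zfp988, so a summit there can count for several genes. The cluster includes Zfp993 and Zfp978, the latter with 171, 92.2, 87.7 and 373. Of its 12 genes with a known strand, 3 had a promoter summit in Ins, where 55.8% of all Zfp genes had one. Inv, the shortest list, had nearly as many summits here as Ins, where over all Zfp genes it had 542 against 800.

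Related gene families and partners were counted in the same way. Of 33 Zbtb genes, zinc finger genes with a BTB domain, 26, 24, 22 and 28 had a summit, and 11, 7, 8 and 9 of the 29 with a strand had one at the promoter. Of 11 Zscan genes, with a SCAN domain, 8, 7, 8 and 8 had a summit, and of 9 Zkscan genes, with both SCAN and KRAB domains, 5, 3, 5 and 5. Over all other genes the share with a summit was 72.2%, 66.4%, 64.5% and 72.2%. The promoter share of Zbtb genes in Ins was 37.9% (interval 22.7 to 56.0), next to 37.4% of other genes and 55.8% of Zfp genes, which both lie in that interval. All 12 KRAB co-factor genes examined had a summit in every list, as did 58.9% of other genes, but their median length was 34.1 kb against 17.8 kb. Atf7ip, a partner of Setdb1, had maxima of 132, 47.3, 42.5 and 363, and Setdb1 120, 68.2, 35.1 and 161. Trim28 had promoter summits in every list, with maxima of 17.9, 25.8, 4.97 and 32.5.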

How the data were processed

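CTCF CUT&RUN peak lists of 4 mESC lines were used, 1 library each, per the labels. The submitters' processing notes name the build mm10 and, in no stated order, MACS2 2.2.7.1, Bowtie2 2.4.5, bedtools 2.30.0, cutadapt 4.1 and Picard. Their settings, and how reads with several possible places were treated, were not given in the sources used here. Per the file contents, the deposited lists give for each peak a fold over local background, a −log10 p-value, a −log10 q-value and a score, which is the −log10 q multiplied by 10 in the deposited files. Read depth is unknown, so shares carry 95% Wilson intervals only.

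Summits were assigned to genes with pandas 2.3.3, NumPy 2.4.6 and SciPy 1.17.1 under Python 3.11.15. Matplotlib 3.10.9 drew the figures. Positions count from 1. Strand and promoter sequence come from RefSeq promoter windows of mm10, which matched 285 of 342 Zfp genes. A summit counted once per gene, in the promoter first, then the last 2 kb, then the body. Other genes were weighted over 10 length bins cut at the Zfp deciles. Summits of different lists matched within 100 bp. On simulated summits 400 of 400 were put in the right zone.

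The members, gene lists and tests were chosen with earlier results of these data known. CpG classes were added after seeing the data, and other cuts of the ratio were looked at first. Named were, for each zone, the 5 genes with the strongest Ins summit, the 5 with the most summits, 6 with a strong Ins summit lacking in another list, the leading genes of the 3 largest clusters, and a fixed list by role. Alternatives were stricter peak lists, other symbols, promoter and matching distances, genes outside clusters, 20 length bins and lists without Inv.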

Additional observations from a re-analysis of the deposited data

How the results depend on the processing

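Values are in the order Ins, then Del(CBS8-10), then Inv, then Inv:Del(CBS7-10). With peaks of −log10 q 10 or more, Zfp genes with a summit were 64.3%, 42.4%, 40.6% and 69.9%, with a promoter summit 31.6%, 12.6%, 15.4% and 32.6%, with a body summit 40.4%, 27.7%, 22.1% and 48.1%, and in the last 2 kb 2.81% in Del(CBS8-10) and 1.75% in Inv. Summits in every library were at 31.6% of genes, 9.12% of promoters and 17.9% of bodies, and 45.3% and 82.6% of Ins summits were found in Inv and Inv:Del(CBS7-10). The difference from other genes of like length was −1.19, −10.26, −10.18 and 2.43 percentage points for any summit, and 4.57, −2.47, −1.65 and 4.63 at promoters. In bodies it was −11.6 in Inv and −0.322 in Inv:Del(CBS7-10). The density ratio per Mb, not weighted for length, turned to 0.953 in Del(CBS8-10) bodies, 0.986 in Inv bodies and 0.980 at Inv promoters.

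With the 20000 strongest peaks, the shares were 22.2%, 24.0%, 21.1% and 21.6% for any summit, 4.56%, 4.91%, 4.56% and 4.91% at promoters, 13.0%, 13.0%, 11.2% and 10.9% in bodies and 1.75%, 1.75%, 1.40% and 1.75% in the last 2 kb. Summits in every library were at 15.8% of genes, 2.46% of promoters and 8.07% of bodies, and 84.4%, 70.5% and 80.3% of Ins summits were found in the other lists. Differences from other genes were −15.2, −12.39, −15.81 and −13.67 percentage points for any summit, −3.41, −2.62, −4.77 and −1.86 at promoters and −12.27, −12.07, −13.24 and −13.37 in bodies. Density ratios were 0.674, 0.828, 0.599 and 0.854 at promoters and 0.795, 0.808, 0.764 and 0.704 in bodies. Both stricter lists hold fewer peaks by construction.

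The small body difference of Inv:Del(CBS7-10) turned to −0.281 points with 20 length bins and −0.408 without chemosensory receptors. The any-summit difference of Del(CBS8-10) turned to −0.807 outside clusters and −0.395 without receptors. The cause of these turns was not tested. Genes with a RefSeq start within 500 bp of the outer end gave promoter shares of 64.8%, 44.5%, 51.7% and 61.9%, 34.8% in every library, and differences of 20.4 and 20.2 points in Ins and Inv:Del(CBS7-10). Ins summits found in the other lists were 63.1%, 59.6% and 79.9% by any overlap and 60.4%, 56.5% and 78.1% within 250 bp. Without Inv, 67.5% of genes and 42.8% of bodies had a summit in every library. Symbols with a letter after the number and a promoter from 1 kb before the start kept every share within its interval. The count of zinc fingers per protein was not run, because no protein table was used here. No paired analysis was possible because each genotype has 1 library.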
